A study of Mus musculus with 96 samples.

Results

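Visual cortex nuclei of adult mice given a Cre virus were compared 1 h after the return of light and at the end of dark housing. The libraries are those of total nuclei from line E123, 4 from light-exposed mice and 3 from dark-housed mice, which is 7 of the 96 libraries of the series. They were chosen by their labels alone. The mice carried Igf1-E123 fl/fl together with VIP flp/wt, so that enhancers of Igf1 (insulin-like growth factor 1, a secreted growth factor) were flanked by sites for Cre, and Flp recombinase was made in VIP cells, interneurons of vasoactive intestinal peptide. At P55-60 they had received AAV-Syn1-fDIO-mScarlet-KASH-2a-Cre in the visual cortex, a neuronal (Syn1) virus that Flp switches on. They went into darkness 3 days later and stayed there for 10 to 12 days. Cre was therefore directed to VIP cells, while total nuclei were labelled as total and not as VIP. Per the labels, each library came from 50 to 100 sorted nuclei. The groups set beside these libraries are total nuclei of the same line given the virus labelled dCre, which stands in for Cre (4 light and 4 dark), total nuclei of the Igf1-E1 fl/fl and Igf1-E23 fl/fl lines with either virus, and VIP nuclei of the E123 Cre mice (4 light and 3 dark). All of them carried the VIP flp/wt allele, a virus and the dark housing.

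Light after darkness drives glutamate release onto cortical neurons. Calcium entry and MAP kinase signalling then activate factors already present in the nucleus, among them CREB, SRF and MEF2, which switch on immediate-early genes without new protein synthesis. Many immediate-early genes encode transcription factors (the Fos, Egr and Nr4a families, Npas4), and these, with CREB, switch on later effector genes that act at synapses, such as Bdnf, Homer1 and Nptx2. Nuclear RNA holds newly made and unspliced transcripts, so it reports such changes early.

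The 7 libraries held 1881731 to 4639702 counts and 19657 to 21047 detected genes, and the lowest total was that of dark replicate 1. The labels give 2 male and 2 female light libraries, against 1 male and 2 female dark libraries, and the levels of Xist and Ddx3y fit them in all 7, and in 47 of the 48 total-nuclei libraries fitted. The length index, the mean log2 level of protein-coding genes over 100 kb minus that of genes under 10 kb, was 2.54, 2.12, 1.88 and 2.07 in light libraries, against 3.15, 2.57 and 2.27 in dark libraries. It was thus lower on average after light, with overlap, and its part in the results was not tested, although a fit with the index as a covariate was run. Levels below are counts per 1000000 (CPM), with means ± SD (n = 4 light and 3 dark). Differences are log2 fold changes, light minus dark, with their standard errors, from the edgeR quasi-likelihood fit of all 48 total-nuclei libraries with Benjamini-Hochberg adjustment over 21213 genes, and the threshold is an adjusted p of 0.05. The labels call the replicates biological but do not say that each is 1 animal, so p-values measure the spread between these libraries.

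Igf1 (ENSMUSG00000020053, chromosome 10, 87858265 to 87937042, plus strand), the gene whose enhancers were targeted, was at 26.7, 16.3, 5.59 and 41.5 CPM in light libraries, against 6.62, 13.3 and 17.7 CPM in dark libraries. The groups overlapped. The log2 fold change was 0.83 ± 1.25, adjusted p = 0.897, and an exact two-sided permutation test of log2(CPM + 1) gave a difference of 0.60 (p = 0.457, where 35 splits allow no p below 0.0286). Counts per gene do not measure the enhancers, so these values do not check the deletion. Vip, the peptide that names the cells in which Cre was expressed, was at 36.1, 5.0, 0 and 151 CPM in light libraries, against 25.4, 59.2 and 0.472 CPM in dark libraries, with a log2 fold change of 0.76 ± 1.68, adjusted p = 0.945. The light libraries alone spanned the whole range, and in pooled nuclei fewer cells of a type and less RNA per cell cannot be told apart.

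After 1 h of light, 12 genes differed from the dark in these nuclei, 0.0566% of the 21213 tested. Of these, 10 rose, 0.0471% of the genes tested, and 2 fell, 0.00943%. The genes that rose were the immediate-early transcription factors Nr4a1, Egr1 and Fosl2, the synaptic immediate-early gene Arc, the MAP kinase phosphatase Dusp14, the neurotrophin receptor Ntrk2, the chaperone Hsph1, the potassium channel Kcnk1, the membrane protein Tmem198 and the noncoding transcript AC174471.1. The genes that fell were Fam13a and Mga. In all 12 the 4 light libraries stood entirely on one side of the 3 dark libraries, where 4.29% of all genes had every light library above every dark one and 4.84% had every light library below. The 12 were picked by p in these same libraries, so their separation is no further support. An unadjusted p under 0.05 was reached by 2225 genes, 1029 higher (4.85%) and 1196 lower (5.64%). The count depends on single libraries: without dark replicate 1 only Nr4a1 passed, without dark replicate 2 only Nr4a1 and Dusp14, and without dark replicate 3 the count was 39, while it was 26 without light replicate 1. DESeq2 called 174 genes, all 12 included, and the 7 libraries fitted alone gave 3, of which 2 (Nr4a1 and Egr1) were among the 12.

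**Figure D1:**
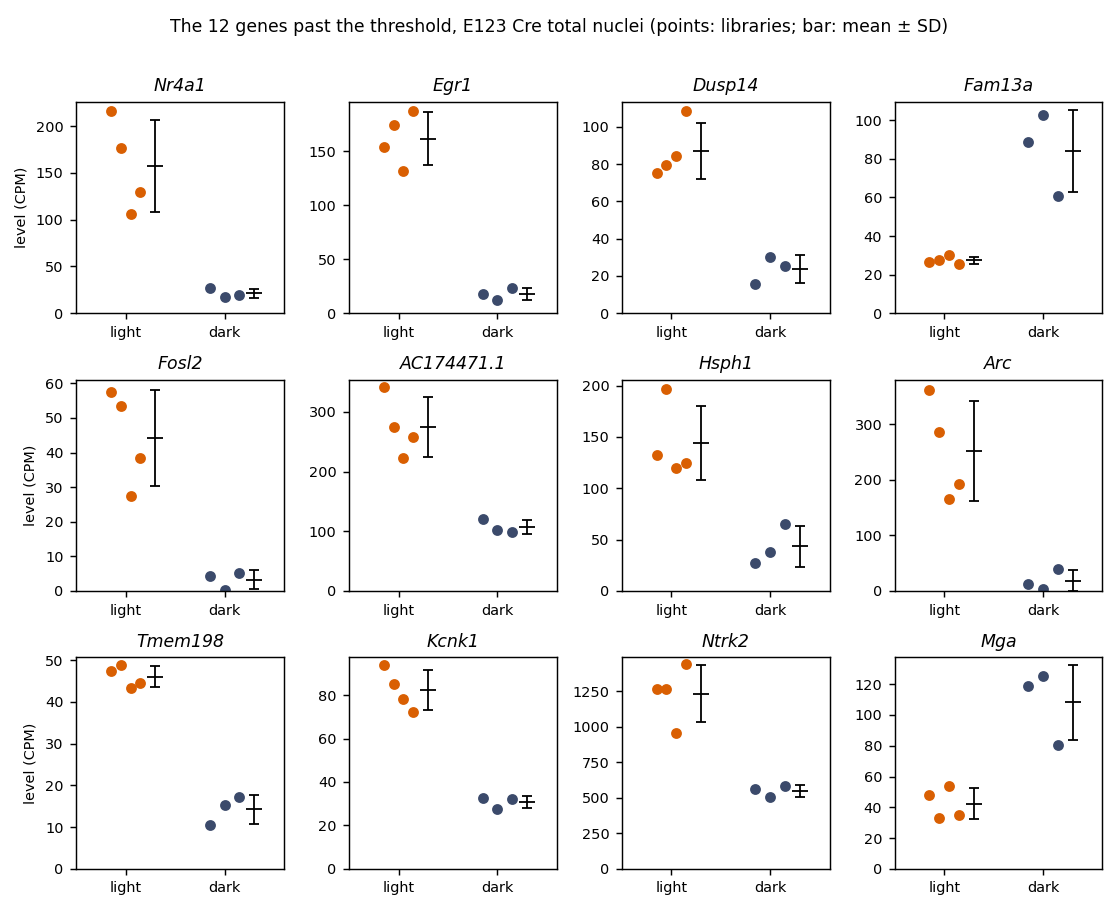
Level in CPM (y axes, starting at 0) of the 12 genes past the threshold in each library of E123 Cre total nuclei, light (orange points, n = 4) left of dark (blue points, n = 3), with the mean and SD as black bars. In each panel the light points lie wholly above the dark points, except for Fam13a and Mga, where they lie wholly below.

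Nr4a1 (ENSMUSG00000023034, chromosome 15, 101254269 to 101274795, plus strand, mm10), an orphan nuclear receptor, had the smallest p. It was at 216, 177, 106 and 129.6 CPM in light libraries, against 27.0, 17.5 and 19.6 CPM in dark libraries. The groups were far apart, and the log2 fold change was 2.89 ± 0.372, adjusted p = 7.36e-06. Egr1, a zinc-finger factor of the Egr family, was at 154, 174, 131 and 187 CPM in light libraries, against 17.6, 12.3 and 23.1 CPM in dark libraries. All light libraries were far above the dark ones, with a log2 fold change of 3.18 ± 0.543, adjusted p = 0.00629. Fosl2 (ENSMUSG00000029135, chromosome 5, 32135801 to 32157842, plus strand) encodes Fra-2, a Fos-family subunit of the AP-1 factor. It was at 57.6, 53.5, 27.4 and 38.4 CPM in light libraries, against 4.41, 0.323 and 5.19 CPM in dark libraries, and dark replicate 2 was near the limit of detection, since 3 counts correspond to 0.936 CPM in that library. The log2 fold change was 3.74 ± 0.703, adjusted p = 0.0103. Arc (ENSMUSG00000022602, chromosome 15, 74669083 to 74672570, minus strand) encodes a protein that promotes removal of AMPA receptors from synapses. It was at 362, 286, 166 and 191 CPM in light libraries, against 12.1, 4.20 and 39.9 CPM in dark libraries. Light replicates 1 and 2 were higher than light replicates 3 and 4, dark replicate 3 was the highest of the dark libraries, and the log2 fold change was 3.70 ± 0.701, adjusted p = 0.0129.

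Dusp14 (ENSMUSG00000018648, chromosome 11, 84048041 to 84069261, minus strand), a phosphatase that inactivates MAP kinases, was at 75.0, 79.5, 84.2 and 109 CPM in light libraries, against 15.4, 30.4 and 25.2 CPM in dark libraries. The groups were well apart, with a log2 fold change of 1.86 ± 0.334, adjusted p = 0.00676. Ntrk2 (ENSMUSG00000055254, chromosome 13, 58806569 to 59133970, plus strand), which encodes TrkB, the receptor of brain-derived neurotrophic factor, was at 1269, 1267, 959 and 1443 CPM in light libraries, against 561, 503 and 584 CPM in dark libraries. The groups did not overlap, with a log2 fold change of 1.17 ± 0.245, adjusted p = 0.0315. The call was lost in 5 of 7 fits that left out 1 library (all but those without light replicate 1 or 3), where the log2 fold change was 1.08 to 1.28 and the adjusted p reached 0.373. The 4 tested overlapping transcripts of Ntrk2 were tested as genes of their own and none passed. Kcnk1 (ENSMUSG00000033998, chromosome 8, 125995170 to 126030685, plus strand), a leak potassium channel, was at 94.1, 85.0, 78.3 and 72.3 CPM in light libraries, against 32.5, 27.5 and 32.3 CPM in dark libraries, with a log2 fold change of 1.42 ± 0.284, adjusted p = 0.0145. The antisense gene Gm45875 within it was at 39.1 ± 8.26 CPM in light and 13.5 ± 1.44 CPM in dark libraries, and since the chemistry marks no strand the pair cannot be told apart.

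Hsph1 (ENSMUSG00000029657, chromosome 5, 149614287 to 149636376, minus strand), a co-chaperone that recharges Hsp70 proteins, was at 133, 197, 120.1 and 125 CPM in light libraries, against 27.0, 37.5 and 65.6 CPM in dark libraries. Light replicate 2 was the highest, and the log2 fold change was 1.71 ± 0.337, adjusted p = 0.0129. Tmem198 (ENSMUSG00000051703, chromosome 1, 75479532 to 75485705, plus strand), a multi-pass membrane protein, was at 47.5, 48.8, 43.3 and 44.6 CPM in light libraries, against 10.5, 15.2 and 17.2 CPM in dark libraries. The light libraries lay within a narrow range, and the log2 fold change was 1.67 ± 0.329, adjusted p = 0.0129. Obsl1, which lies on the other strand across Tmem198 and encodes a cytoskeletal adaptor, averaged 52.4 ± 3.85 CPM in light and 21.6 ± 3.57 CPM in dark libraries (1.27 ± 0.281, adjusted p = 0.0547), so reads of these genes may be shared. AC174471.1 (ENSMUSG00000118341, chromosome 17, 30459502 to 30923831, minus strand), annotated as a processed transcript, was at 342, 274, 222 and 259 CPM in light libraries, against 120.2, 102 and 99.3 CPM in dark libraries. Its log2 fold change was 1.36 ± 0.262, adjusted p = 0.0129. It overlaps Btbd9, a synaptic BTB-domain protein gene on the same strand, which was at 435.9 ± 51.1 CPM in light and 247.6 ± 28.7 CPM in dark libraries (0.82 ± 0.243, adjusted p = 0.181).

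Fam13a (ENSMUSG00000037709, chromosome 6, 58932090 to 59024549, minus strand), a gene with a GTPase-activating domain, was at 26.3, 27.5, 30.0 and 25.4 CPM in light libraries, against 88.8, 103 and 60.9 CPM in dark libraries. The light libraries were low and nearly equal, and the log2 fold change was -1.62 ± 0.301, adjusted p = 0.0102. BB365896, antisense within Fam13a, was at 6.40 ± 4.44 CPM in light and 36.5 ± 14.5 CPM in dark libraries (-2.52 ± 0.62, adjusted p = 0.0898). Mga (ENSMUSG00000033943, chromosome 2, 119897228 to 119969581, plus strand), a MAX-binding transcription factor with a T-box domain, was at 48.1, 33.0, 53.6 and 35 CPM in light libraries, against 119, 125 and 80.5 CPM in dark libraries, with a log2 fold change of -1.35 ± 0.289, adjusted p = 0.0401. The Mga call was lost with total counts alone and in 4 of 7 fits that left out 1 library (light replicate 2 or 4, dark replicate 1 or 2), where the adjusted p reached 0.418. The next genes in that direction did not pass. Cntn6, a cell adhesion molecule of the contactin family, averaged 168 ± 41.8 CPM in light and 346 ± 147 CPM in dark libraries (-1.05 ± 0.234, adjusted p = 0.0579). Myef2, a repressor of the myelin basic protein gene, averaged 106 ± 19.7 CPM in light and 230.3 ± 81.6 CPM in dark libraries (-1.12 ± 0.252, adjusted p = 0.0579). Both ranges were wide in the dark. Nmrk1, a nicotinamide riboside kinase, averaged 3.78 ± 2.93 CPM in light and 24.2 ± 12.6 CPM in dark libraries (-2.69 ± 0.610, adjusted p = 0.0631), and Gpatch2, a G-patch protein, averaged 45.9 ± 4.11 CPM in light and 95.8 ± 21.2 CPM in dark libraries (-1.06 ± 0.244, adjusted p = 0.0730).

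Promoters are shown for the gene of smallest p, a known CREB target (Nr4a1), for a gene with a full CREB motif (Tmem198), for the chaperone (Hsph1) and for a gene that fell (Fam13a). Each is the 250 bases upstream of the start in RefSeq (GRCm38.p6), 5′ to 3′ on the gene's strand: chr15:101266596-101266845, plus strand for Nr4a1, chr1:75479282-75479531, plus strand for Tmem198, chr5:149636337-149636586, minus strand for Hsph1 and chr6:59024503-59024752, minus strand for Fam13a. Capitals mark CGTCA or TGACG (the CREB site and its reverse complement) and TTCNNGAA (a heat-shock element core).
Nr4a1: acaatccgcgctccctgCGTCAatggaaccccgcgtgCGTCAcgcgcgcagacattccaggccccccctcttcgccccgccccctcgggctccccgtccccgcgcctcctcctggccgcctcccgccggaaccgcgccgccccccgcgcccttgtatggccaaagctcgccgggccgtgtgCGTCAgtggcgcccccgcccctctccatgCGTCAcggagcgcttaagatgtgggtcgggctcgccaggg
Tmem198: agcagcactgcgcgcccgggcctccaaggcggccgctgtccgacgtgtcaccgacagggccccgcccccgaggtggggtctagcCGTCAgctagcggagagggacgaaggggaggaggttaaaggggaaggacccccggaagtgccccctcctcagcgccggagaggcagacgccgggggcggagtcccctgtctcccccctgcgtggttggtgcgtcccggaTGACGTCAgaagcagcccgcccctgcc
Hsph1: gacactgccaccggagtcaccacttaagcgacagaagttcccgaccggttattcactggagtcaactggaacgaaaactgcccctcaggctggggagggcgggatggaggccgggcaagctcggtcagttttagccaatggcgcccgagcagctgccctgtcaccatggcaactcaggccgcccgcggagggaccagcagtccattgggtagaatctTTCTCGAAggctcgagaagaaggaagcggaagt
Fam13a: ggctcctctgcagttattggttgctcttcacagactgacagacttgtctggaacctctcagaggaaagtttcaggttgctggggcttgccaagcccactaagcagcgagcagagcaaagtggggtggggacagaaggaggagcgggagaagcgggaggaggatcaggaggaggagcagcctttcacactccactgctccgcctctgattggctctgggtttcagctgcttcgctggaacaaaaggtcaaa
The Nr4a1 window held 4 matches to CGTCA or TGACG and the Tmem198 window 3, of which a pair overlap in the palindrome TGACGTCA. The Hsph1 window held 1 match to TTCNNGAA, and the Fam13a window held no match to any motif searched. Promoters of 9 of the 12 genes were searched, and those of Egr1, Arc and AC174471.1 were not. Of the 9, 3 held CGTCA or TGACG (the other was Mga), against 17.9% of 27025 promoters, and 1 held TGACGTCA, against 1.62%. The heat-shock core was in 2 of the 9 (Hsph1 and Mga), against 7.1% of promoters, and TGANTCA, the AP-1 motif, was in 0 of the 9, against 6.87%. A match is a run of letters and was not tested as a binding site.

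Rapid immediate-early genes were mostly at higher levels after light. Of 44 listed, 42 were tested and 4 passed (Nr4a1, Egr1, Fosl2 and Arc), none in the other direction. The median log2 fold change of the 42 was 2.01, against 0.01 for all genes tested. An unadjusted p under 0.05 with higher levels in light was reached by 24 of 42, against 4.85% of all genes, and 23 of 42 had every light library above every dark one, against 4.29%. Summed over the list, the level was 1119.9 to 1633 CPM in light libraries, against 277 to 439.8 CPM in dark libraries. Without dark replicate 1, and equally without dark replicate 2, 1 of these genes passed (Nr4a1), and DESeq2 called 14.

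Among the AP-1 genes, Fos was at 44.5, 57.5, 32.7 and 54.8 CPM in light libraries, against 4.96, 6.14 and 6.61 CPM in dark libraries. The groups did not overlap, yet the change of 2.98 ± 0.837, adjusted p = 0.149 did not pass. Fosb was at 8.97, 9.25, 5.59 and 4.80 CPM in light libraries, against 0, 0 and 0.708 CPM in dark libraries, with 0 counts in dark replicates 1 and 2 and a log2 fold change of 4.54 ± 1.44, adjusted p = 0.222. Junb was at 34.9, 35.3, 43.6 and 48.3 CPM in light libraries, against 8.82, 8.41 and 12.5 CPM in dark libraries, a separation without overlap (2.01 ± 0.554, adjusted p = 0.142). Among the Egr genes, Egr3 was at 24.5, 65.3, 50.6 and 59.3 CPM in light libraries, against 17.1, 8.73 and 18.6 CPM in dark libraries (1.75 ± 0.481, adjusted p = 0.142). Light replicate 1 was the lowest of its group. Egr4 was at 6.98, 24.3, 3.83 and 26.8 CPM in light libraries, against 0.551, 0 and 0.944 CPM in dark libraries (4.82 ± 1.34, adjusted p = 0.143), uneven in light and near the limit of detection in the dark.

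The other Nr4a receptors lay in the same direction without passing. Nr4a2 was at 51.6, 40.5, 22.7 and 72.9 CPM in light libraries, against 16.5, 5.50 and 7.55 CPM in dark libraries (2.29 ± 0.541, adjusted p = 0.0816). Nr4a3 was at 94.1, 45.8, 28.8 and 53.4 CPM in light libraries, against 5.51, 13.3 and 13.2 CPM in dark libraries (2.35 ± 0.646, adjusted p = 0.143). In both, every light library was above every dark one. Npas4, a factor made specifically on neuronal calcium entry, was at 17.9, 33.3, 11.2 and 16.7 CPM in light libraries, against 9.92, 2.26 and 2.83 CPM in dark libraries (2.04 ± 0.973, adjusted p = 0.458). Its lowest light value was just above its highest dark value. Of the smaller regulators, Ier2 averaged 4.91 ± 3.14 CPM in light and 0.924 ± 0.638 CPM in dark libraries (2.47 ± 1.26, adjusted p = 0.489), Ier5 20.7 ± 11.8 CPM in light and 4.35 ± 4.92 CPM in dark libraries (2.16 ± 0.644, adjusted p = 0.182), and Btg2, an antiproliferative coregulator, 23.6 ± 8.5 CPM in light and 10.4 ± 2.79 CPM in dark libraries (1.17 ± 0.700, adjusted p = 0.575). Ier2 and Ier5 overlapped between groups and Btg2 did not.

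**Figure D2:**
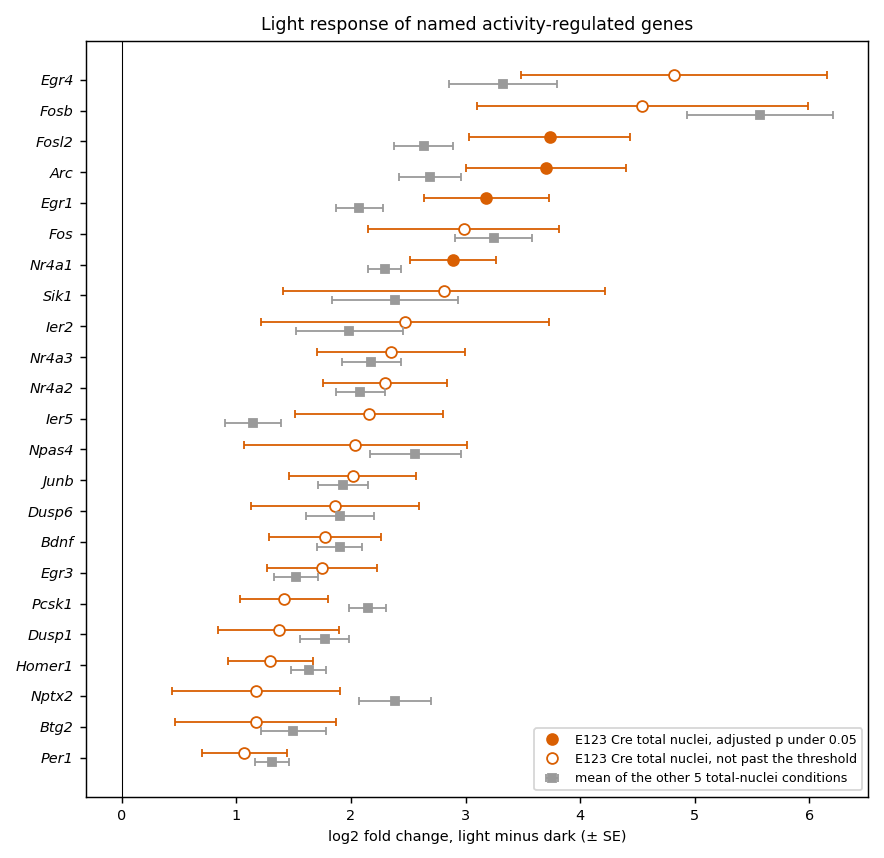
Log2 fold change, light minus dark, with SE (x axis) of 23 activity-regulated genes (y axis) in E123 Cre total nuclei (orange circles, filled where the adjusted p was under 0.05) and as the mean of the other 5 total-nuclei conditions (grey squares). All 23 are above 0 in both, and the filled circles are Fosl2, Arc, Egr1 and Nr4a1.

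Activity-regulated effector genes, which encode secreted and synaptic proteins, had 1 of 38 tested past the threshold, Ntrk2, and 0 in the other direction. Of all genes, 0.0471% passed as higher. The median of the list was 1.03 on the log2 scale. An unadjusted p under 0.05 with higher levels in light was reached by 16 of 38, against 4.85% of all genes. The summed level of the list was 3356 to 4833 CPM in light libraries, against 1947 to 2895 CPM in dark libraries. Bdnf, the TrkB ligand, was at 12.2, 75.5, 85.7 and 104 CPM in light libraries, against 11.6, 15.2 and 32.8 CPM in dark libraries. Light replicate 1 lay within the dark range, and the change was 1.77 ± 0.491, adjusted p = 0.143. Homer1, a postsynaptic scaffold with a short activity-induced form, was at 618, 532, 369 and 582 CPM in light libraries, against 261, 162 and 219 CPM in dark libraries, without overlap (1.30 ± 0.369, adjusted p = 0.150). Pcsk1, a convertase of prohormones and neuropeptides, was at 139, 239, 108 and 156 CPM in light libraries, against 44.7, 57.6 and 77.2 CPM in dark libraries, also without overlap (1.42 ± 0.386, adjusted p = 0.141).

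Nptx2, a secreted pentraxin that gathers AMPA receptors, was at 5.18, 39.8, 29.1 and 68.9 CPM in light libraries, against 4.41, 4.53 and 37.3 CPM in dark libraries (1.17 ± 0.734, adjusted p = 0.592). Dark replicate 3 exceeded a pair of light libraries. Arl4d, a small GTPase, was just outside the threshold at 36.1, 16.3, 34.7 and 26.5 CPM in light libraries, against 3.31, 0.323 and 5.19 CPM in dark libraries (3.24 ± 0.716, adjusted p = 0.0547), without overlap. Penk, the enkephalin precursor, was at 4.79, 48.5, 84.5 and 35 CPM in light libraries, against 1.10, 3.56 and 5.19 CPM in dark libraries (3.62 ± 0.855, adjusted p = 0.0825). Light replicate 1 stood below dark replicate 3 there, as it stood low for Bdnf, Nptx2 and Egr3.

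MAP kinase phosphatases and feedback regulators had 1 of 18 past the threshold, Dusp14, and a median of 0.76. At an unadjusted p under 0.05 were 4 of 18, all higher, against 4.85% of all genes higher. Dusp1 was at 39.3, 67.3, 31.2 and 77.1 CPM in light libraries, against 23.2, 13.9 and 25.2 CPM in dark libraries (1.37 ± 0.527, adjusted p = 0.348). Dusp6, which acts on ERK, was at 35.7, 68.3, 75.1 and 83.3 CPM in light libraries, against 18.2, 14.6 and 21.2 CPM in dark libraries (1.86 ± 0.736, adjusted p = 0.356). Neither overlapped. Dusp5 averaged 12.4 ± 10.1 CPM in light and 2.77 ± 0.730 CPM in dark libraries (2.15 ± 0.897, adjusted p = 0.377) and was at 0 in light replicate 1. Among CREB, its coactivators and the salt-inducible kinases that hold those coactivators in the cytoplasm, 0 of 13 passed and the median was 0.32. The unadjusted p was under 0.05 for 2 higher and 1 lower, against 4.85% and 5.64% of all genes. Sik2 was at 321, 471, 275 and 369 CPM in light libraries, against 112, 87.0 and 173 CPM in dark libraries (1.53 ± 0.344, adjusted p = 0.0579). Sik1, an immediate-early kinase, was at 18.5, 11.5, 5.59 and 4.52 CPM in light libraries, against 2.76, 0 and 1.65 CPM in dark libraries (2.81 ± 1.41, adjusted p = 0.480). Sik3 averaged 325 ± 84.2 CPM in light and 217 ± 84.2 CPM in dark libraries (0.58 ± 0.285, adjusted p = 0.470), and Creb1 averaged 34.7 ± 10.8 CPM in light and 58.1 ± 14.2 CPM in dark libraries (-0.74 ± 0.347, adjusted p = 0.445), every light library below every dark one.

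Heat-shock chaperones, which fold proteins and are made in excess under stress and in active neurons, had 1 of 18 tested genes past the threshold (Hsph1), from a list of 20. Their median was 0.73. An unadjusted p under 0.05 was reached by 8 of 18 with higher levels in light, against 4.85% of all genes, and by 0 with lower. In 7 of 18 every light library was above every dark one, against 4.29% of all genes. The summed level was 1619 to 2459.7 CPM in light libraries, against 791 to 1441 CPM in dark libraries. Dnajb1, an Hsp40 co-chaperone, was at 30.5, 45.8, 31.8 and 48.9 CPM in light libraries, against 8.82, 8.73 and 8.02 CPM in dark libraries (2.20 ± 0.519, adjusted p = 0.0816). The dark values were nearly equal. Hsp90ab1 was at 382, 580.0, 536 and 562 CPM in light libraries, against 76.1, 155 and 239.7 CPM in dark libraries (1.71 ± 0.488, adjusted p = 0.162), and Hsp90aa1 averaged 224 ± 40.2 CPM in light and 91.1 ± 43.2 CPM in dark libraries (1.29 ± 0.415, adjusted p = 0.232). Both Hsp90 genes have processed pseudogenes, which may take part of their reads.

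Circadian clock genes had 0 of 21 past the threshold and a median of 0.21. The unadjusted p was under 0.05 in 5 higher and 1 lower, against 4.85% and 5.64% of all genes. Per1, a clock repressor that CREB also induces, was at 123.4, 89.0, 156 and 77.7 CPM in light libraries, against 76.6, 30.1 and 53.6 CPM in dark libraries (1.07 ± 0.371, adjusted p = 0.289), without overlap. Bhlhe40, a repressor of clock genes, averaged 43.5 ± 21.7 CPM in light and 17.4 ± 5.95 CPM in dark libraries (1.30 ± 0.476, adjusted p = 0.314), with light replicate 1 below all dark libraries. Csnk1d, a kinase of the PER proteins, averaged 58.4 ± 31.1 CPM in light and 29.7 ± 11.5 CPM in dark libraries (0.98 ± 0.365, adjusted p = 0.329), and Cry2, a partner of PER, averaged 85.3 ± 27.2 CPM in light and 52.5 ± 2.88 CPM in dark libraries (0.70 ± 0.299, adjusted p = 0.389).

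IGF signalling genes had 0 of 26 tested genes past the threshold (28 listed) and a median of 0.01, against 0.01 for all genes. The unadjusted p was under 0.05 in 4 higher and 0 lower, against 4.85% and 5.64% of all genes. These 4 were Mtor, the growth kinase downstream of the receptor, at 73.8, 65.0, 46.5 and 50.6 CPM in light libraries, against 43.0, 20.7 and 29.0 CPM in dark libraries (0.95 ± 0.312, adjusted p = 0.248), the IGF-binding proteins Igfbp4, averaging 46.1 ± 14.9 CPM in light and 19.7 ± 5.83 CPM in dark libraries (1.21 ± 0.460, adjusted p = 0.341), and Igfbp6, averaging 18.7 ± 6.78 CPM in light and 6.43 ± 5.86 CPM in dark libraries (1.47 ± 0.617, adjusted p = 0.381), and Irs2, a receptor adaptor, averaging 26.1 ± 5.69 CPM in light and 9.02 ± 7.77 CPM in dark libraries (1.49 ± 0.631, adjusted p = 0.381). Mtor, Igfbp4 and Irs2 did not overlap between the groups, where 4.29% of all genes had every light library above every dark one. Of the 26 genes, 13 were above 0 on the log2 scale, and 1 had every light library below every dark one.

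Listed glutamate receptor, GABA-A receptor and voltage-gated channel genes lay more often on the low side after light, and none passed. The channel Kcnk1 and the receptor Ntrk2, which rose, are not in these lists. Of all genes, 4.85% were higher and 5.64% lower at an unadjusted p under 0.05, and 4.84% had every light library below every dark one. Glutamate receptor subunits had a median of -0.25 over 24 genes, 5 of them above 0, and 1 higher and 5 lower at an unadjusted p under 0.05. The AMPA receptor subunit Gria3 was at 489, 659, 560.2 and 560.1 CPM in light libraries, against 1133, 862 and 762 CPM in dark libraries (-0.70 ± 0.203, adjusted p = 0.166), Gria4 averaged 557 ± 116 CPM in light and 897 ± 196 CPM in dark libraries (-0.69 ± 0.233, adjusted p = 0.271) and Gria2 averaged 1064 ± 134 CPM in light and 1481 ± 138 CPM in dark libraries (-0.48 ± 0.175, adjusted p = 0.314). None of these 3 overlapped. Grin3a, an NMDA receptor subunit, averaged 40.8 ± 12.8 CPM in light and 96.2 ± 28.4 CPM in dark libraries (-1.24 ± 0.472, adjusted p = 0.344). GABA-A receptor subunits had a median of -0.37 over 12 genes, 3 of them above 0, with 4 lower at an unadjusted p under 0.05. The median was -0.08 without dark replicate 2 and -0.15 without light replicate 1. Among them were Gabrb2 (242 ± 37.0 CPM in light and 385 ± 58.0 CPM in dark libraries, -0.67 ± 0.234, adjusted p = 0.292), Gabrb1 (-0.54 ± 0.219, adjusted p = 0.359) and Gabrg3 (-0.59 ± 0.277, adjusted p = 0.445).

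Voltage-gated ion channels had a median of -0.23 over 26 genes, 10 of them above 0, with 1 higher and 6 lower at an unadjusted p under 0.05. Without dark replicate 1 this median was -0.03, against 0.03 for all genes, and that of glutamate receptors was -0.16. Scn1a, a sodium channel of fast-spiking interneurons, was at 149, 223, 168 and 155 CPM in light libraries, against 311, 339 and 324 CPM in dark libraries (-0.90 ± 0.208, adjusted p = 0.0735), the nearest to the threshold, and Scn3a averaged 88.1 ± 11.8 CPM in light and 139 ± 36.7 CPM in dark libraries (-0.66 ± 0.231, adjusted p = 0.292). Kcnh7 averaged 1151 ± 127 CPM in light and 1800.4 ± 514 CPM in dark libraries (-0.64 ± 0.252, adjusted p = 0.355). Among the 17 postsynaptic scaffold genes Arc passed and the median was 0.07. Dlg4 averaged 39.2 ± 20.3 CPM in light and 16.9 ± 3.08 CPM in dark libraries (1.22 ± 0.437, adjusted p = 0.302). Homer2 averaged 27.1 ± 9.93 CPM in light and 50.0 ± 4.88 CPM in dark libraries (-0.88 ± 0.412, adjusted p = 0.445). Many receptor and channel genes are long, and the length index was lower in light libraries on average, with overlap. The part of the index in the receptor and channel values was not tested. With the index as a covariate the median was -0.12 for glutamate receptors, -0.28 for GABA-A receptors and -0.01 for voltage-gated channels, against 0.02 for all genes, and 1 channel gene passed, lower in light.

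**Figure D3:**
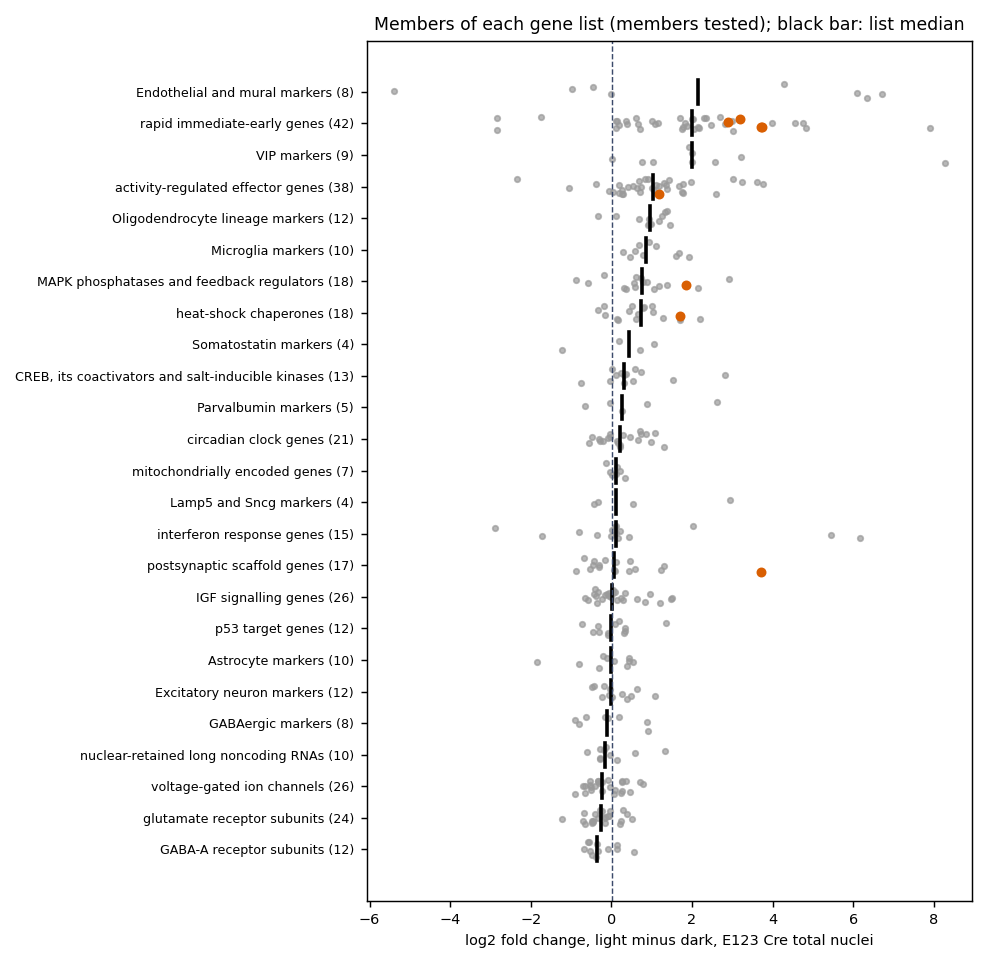
Log2 fold change, light minus dark, in E123 Cre total nuclei (x axis) of each tested member (points; orange where the adjusted p was under 0.05) of 25 gene lists (y axis, members tested in brackets), with the list median as a black bar and the median of all genes as a dashed line. The immediate-early list has 4 orange points, and the scaffold list has 1, which is Arc. Fitted values of genes with 0 counts in a whole group, such as Atf3 and Tac2, depend on the prior count.

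Markers of cell types were set beside these values, since each library samples few nuclei. Excitatory markers, led by Camk2a (911 ± 202 CPM in light and 585 ± 61.1 CPM in dark libraries, 0.64 ± 0.179, adjusted p = 0.147), had a median of -0.02, with sums of 1747 to 2790.3 CPM in light libraries, against 1817 to 2019 CPM in dark libraries. GABAergic markers had a median of -0.11, but their sum did not overlap, at 3459.5 to 4429 CPM in light libraries, against 5721 to 6076 CPM in dark libraries. Most of that sum is Nrxn3, a long synaptic gene that other neurons also express, at 3104 ± 294 CPM in light and 4777 ± 451 CPM in dark libraries (-0.62 ± 0.230, adjusted p = 0.320). Markers of VIP cells were above 0 on the log2 scale in 9 of 9, where 50.6% of all genes were, and none passed. Their median was 1.99, with values from 0.02 to 8.27, and Vip itself was below 0 without light replicate 4. Sums were 207 to 622 CPM in light libraries, against 138 to 249 CPM in dark libraries. Cck averaged 233 ± 109.8 CPM in light and 61.4 ± 21.1 CPM in dark libraries (1.92 ± 0.467, adjusted p = 0.0898), Crh averaged 9.65 ± 7.76 CPM in light and 0.923 ± 1.09 CPM in dark libraries (3.22 ± 1.53, adjusted p = 0.455), and Tac2 was at 0 in all 3 dark libraries and in light replicate 3. Parvalbumin, somatostatin and Lamp5 or Sncg markers had medians of 0.25, 0.44 and 0.11 over 5, 4 and 4 genes tested, and none passed.

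Summed glial markers overlapped between light and dark libraries. Oligodendrocyte markers summed to 619.9 to 4879 CPM in light libraries, against 871 to 1711 CPM in dark libraries. Their median was 0.96, with 11 of 12 above 0, where 50.6% of all genes were. Mbp, a protein of myelin, was at 965, 207, 444 and 444 CPM in light libraries, against 187, 182 and 315 CPM in dark libraries (1.17 ± 0.467, adjusted p = 0.357), highest in light replicate 1. Microglial markers summed to 198 to 911 CPM in light libraries, against 219 to 425 CPM in dark libraries, with a median of 0.85 and 10 of 10 above 0, and astrocyte markers to 502 to 973 CPM in light libraries, against 477 to 1157 CPM in dark libraries, with a median of -0.01. Endothelial and mural markers, of which 8 of 10 were tested, summed to no more than 14.9 CPM in any library, and Rgs5 was at 0 in the 3 dark libraries. Without light replicate 1 the median was 0.61 for oligodendrocyte and 0.49 for microglial markers. The part of these shifts in the gene results was not tested. Ntrk2 is also made by astrocytes.

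Interferon response genes (15 tested of 16, median 0.10), p53 targets (12 of 14, 0.00), mitochondrially encoded genes (7 of 13, 0.12) and nuclear-retained long noncoding RNAs (10 of 10, -0.16) had 0 members past the threshold. The interferon median was -0.61 without light replicate 1, whose summed level of 238 CPM was the highest of the light libraries, the others being at 65.0 to 98.4 CPM, against 79.2 to 133.7 CPM in dark libraries. Of the noncoding RNAs, Snhg14, the transcript antisense to Ube3a, averaged 832 ± 142 CPM in light and 1266 ± 298 CPM in dark libraries (-0.61 ± 0.218, adjusted p = 0.302).

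The response to light was then compared with that of the same line given dCre. No gene passed the test of the difference (0% of 21213), 1005 had an unadjusted p under 0.05, and DESeq2 called 6. In E123 dCre total nuclei 79 genes passed, 69 higher and 10 lower, but a larger number in 1 condition is not a test that the responses differ. Nr4a1 changed by 2.89 ± 0.372 with Cre and 2.44 ± 0.321 with dCre on the log2 scale, a difference of 0.45 ± 0.460. For Arc the values were 3.70 ± 0.701 with Cre and 4.32 ± 0.644 with dCre, and for Egr1 3.18 ± 0.543 with Cre and 2.93 ± 0.472 with dCre. The difference was -0.61 ± 0.846 for Arc and 0.26 ± 0.665 for Egr1, and neither passed. Kcnk1 changed by 1.42 ± 0.284 with Cre and 0.25 ± 0.25 with dCre, a difference of 1.17 ± 0.374, which did not pass. Mga changed by -1.35 ± 0.289 with Cre and -0.29 ± 0.268 with dCre, and Penk by 3.62 ± 0.855 with Cre and -0.09 ± 0.682 with dCre. The Penk difference passed with no filter on low counts. The median of the VIP marker list was 1.99 with Cre and -0.27 with dCre. Igf1 changed by 0.83 ± 1.25 with Cre and -0.91 ± 1.15 with dCre, a difference of 1.74 ± 1.70. Dark dCre replicates 1 and 2 of this line stood above every E123 Cre library in length index, at up to 4.42, and no gene passed without them and the equally high pair of line E1 (a setting chosen after seeing the data).

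Against the mean response of the other 5 total-nuclei conditions, again no gene passed (0% of 21213; 1245 with an unadjusted p under 0.05, and 10 by DESeq2). That mean itself held 1069 genes past the threshold, 5.04% of those tested, 636 higher (3%) and 433 lower (2.04%). The levels contrasted came from 41 libraries that include none of the 7. The gene filter, normalization and spread came from the fit of all 48 libraries, so these calls are not fully independent of the 7. Of the 636 higher genes, 559 (87.9%) also had a log2 fold change above 0 in E123 Cre nuclei, where 50.6% of all genes did. Their median was 0.58 in E123 Cre nuclei and 0.66 in the other conditions. Of the 433 lower genes, 326 (75.3%) were below 0 in E123 Cre nuclei, where 48.5% of all genes were. Their median was -0.47 in E123 Cre nuclei and -0.63 in the other conditions. Of the 12 genes, 11 were called in the same direction in the other conditions. Mga was not, at -0.23 ± 0.119, adjusted p = 0.275 there.

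The sizes differed among the 12, without a difference that passed. AC174471.1 changed by 1.36 ± 0.262 in E123 Cre nuclei and 0.42 ± 0.104 in the other conditions. Fam13a changed by -1.62 ± 0.301 in E123 Cre nuclei and -0.65 ± 0.124 in the others, and Kcnk1 by 1.42 ± 0.284 in E123 Cre nuclei and 0.58 ± 0.111 in the others. Ntrk2 was alike in both, at 1.17 ± 0.245 in E123 Cre nuclei and 1.17 ± 0.0999 in the others. Several genes that missed the threshold in the 7 libraries passed in the 41, among them Fos (3.25 ± 0.338, adjusted p = 3.90e-09), Pcsk1 (2.15 ± 0.161, adjusted p = 3.39e-14), Sik2 (1.86 ± 0.141, adjusted p = 3.71e-14), Per1 (1.31 ± 0.151, adjusted p = 1.26e-08) and Nptx2 (2.38 ± 0.316, adjusted p = 6.29e-07). Penk did not, at 0.11 ± 0.298, adjusted p = 0.930, and its difference from the E123 Cre response passed with no filter and by DESeq2. With no filter 18 genes passed that test, among them Cck and Tac2 of the VIP marker list. The median of that list was 1.99 in E123 Cre nuclei and -0.05 in the other conditions. The part of the sampled cell types in the Penk value was not tested.

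**Figure D4:**
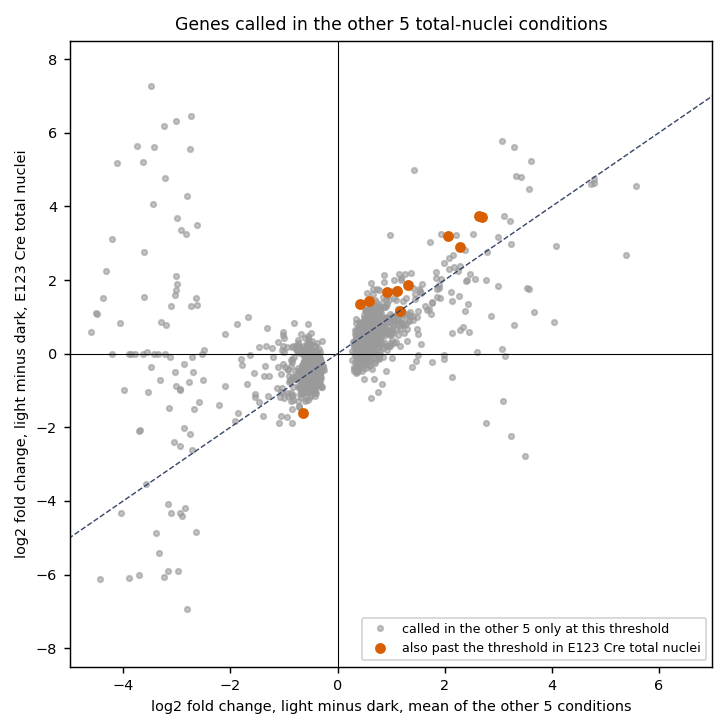
Log2 fold change, light minus dark, of the 1069 genes past the threshold in the mean of the other 5 total-nuclei conditions (x axis) and in E123 Cre total nuclei (y axis), with orange points for the 11 genes that passed in both and a dashed line of equality. Of the 636 genes to the right of 0, 559 lie above 0, and of the 433 to the left of 0, 326 lie below.

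VIP nuclei of the same condition, with Cre expressed in the sorted cells, were compared in a fit of all 96 libraries. Total and VIP libraries of one number may come from the same animals, which the labels do not say, and the fit treats them as independent. No gene passed the test of the difference between total and VIP nuclei (0% of 22926; 1279 with an unadjusted p under 0.05, and 23 by DESeq2). The VIP nuclei had 2 genes past the threshold, both higher, and 1 of them was AC174471.1, at 2.09 ± 0.321, adjusted p = 0.000110, which was 1.36 ± 0.262 in total nuclei. Nr4a1 changed by 2.89 ± 0.372 in total nuclei and 1.64 ± 0.399 in VIP nuclei, Egr1 by 3.18 ± 0.543 in total nuclei and 2.82 ± 0.640 in VIP nuclei, and Arc by 3.70 ± 0.701 in total nuclei and 2.29 ± 0.902 in VIP nuclei. In VIP nuclei Nr4a1, Egr1 and Arc did not pass (adjusted p = 0.149, 0.120 and 0.548). Igf1 changed by 0.83 ± 1.25 in total nuclei and 0.02 ± 0.759 in VIP nuclei.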

How the data were processed

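The authors deposited raw counts of reads per gene for 96 libraries of sorted nuclei, and this table of counts is the sole file used. Per the submitters' processing notes, cutadapt 1.18, STAR 2.5.3a and HOMER 4.9.1 were used with mm10. The annotation release and the strand setting are not given in the sources used here. Per the labels' protocols, 50 to 100 nuclei were sorted per library, cDNA was primed on poly(A) tails, amplified in 17 PCR cycles and tagmented, which does not mark the strand, so overlapping and antisense genes share reads. PCR reads carry no molecular identifiers, so depth limits cover counting error only.

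Of 55335 identifiers, 55154 were matched to GENCODE M21 for symbols and positions, and the 181 others held 0.0225% of counts. The 48 total-nuclei libraries (1881731 to 8972526 counts) were fitted in R 4.3.3 with edgeR 4.0.16 (TMM, filterByExpr by group, robust quasi-likelihood F tests, 1 coefficient per group, 21213 genes). VIP nuclei were compared in a fit of 96 libraries (22926 genes). P-values were adjusted by Benjamini-Hochberg with a threshold of 0.05, and SEs come from the log2 fold change over the root of F. CPM use TMM library sizes. The biological coefficient of variation was 0.679. On simulated counts for this comparison (20303 genes), the test recovered 5 of 100 genes changed by 2-fold, 57 of 100 changed by 4-fold, and made 3 false calls. The changed genes had a mean of at least 5 CPM in the 7 libraries, so recovery of lower genes was not measured. No pair of the 7 libraries within light or dark was a duplicate. Promoters come from RefSeq (GRCm38.p6).

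Named genes are 25 fixed genes, Igf1, Vip and activity genes, the genes past the threshold, filled to 6 in a direction by smallest p, and up to 4 genes of smallest p from each of 25 lists. These groups, lists and tests were chosen with earlier results of these data known. Alternatives were another size factor, total counts, no filter, DESeq2 1.42.0, covariates for length index or sex, a replicate block, fewer libraries, and each library left out. Some genes are not reported here.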

Additional observations from a re-analysis of the deposited data

Results flagged for a closer look

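Hsph1, the chaperone that rose, had 1 light library, replicate 2, apart from its group. It was at 197.1 CPM there, while the nearest other light library was at 132.8 CPM and the lowest at 120.1 CPM. The gap was 0.835 of the range of the 4 libraries, past Dixon's 95% critical value for 4 samples. Of 82 measures tested in the light group this was the sole one past it, and chance puts about 1 in 20 there. Without light replicate 2, the Hsph1 light response was a log2 fold change of 1.53 (adjusted p = 0.0698) and no longer passed.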

How the results depend on the processing

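The 12 genes past the threshold in the light response were 12 of 12 again with RLE size factors (12 called), with the sex covariate (21), the length index covariate (75), no filter on low counts (173), DESeq2 (174), and without the 4 dark dCre libraries of high length index (49, added after seeing the data), and 11 with total counts alone (13 called, Mga lost). The 7 libraries fitted alone called 3, with 2 of the 12 among them. Leaving out 1 library gave 1 to 39. Rapid immediate-early genes past the threshold numbered 13 with no filter and 14 by DESeq2, and 1 to 5 when 1 library was left out. The difference from E123 dCre nuclei held 6 genes with no filter and 6 by DESeq2, and 0 to 1 with 1 library left out (Rnf152, without Cre light replicate 1). The difference from the other 5 conditions held 18 with no filter, 10 by DESeq2 and 0 to 1, and that from VIP nuclei 23 by DESeq2 and 0 to 0. The other 5 conditions gave 502 genes without the 4 dark dCre libraries and 811 to 1956 with 1 library left out, the highest without E1 dCre dark replicate 3. The cause of these shifts was not tested. The fit with no filter tested 36815 genes, and fits of fewer libraries gave counts on both sides of the 12.

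Among 79 genes named and tested, the direction held under every setting except for the Vip light response, whose log2 fold change was -1.54 with the replicate block and -1.01 without light replicate 4 (-1.01 to 2.02 with 1 library left out). The Igf1 difference was 0.21 to 1.11 with 1 library left out. The correlation of deviations was 0.0138, 0.0109 and 0.0444 for the 3 shared replicate numbers, and -0.0439 to 0.0320 for unlike numbers. Values this small cannot decide whether the numbers pair the libraries. With the replicate block 14 genes were called, 10 of the 12 among them (Mga and Ntrk2 lost), and the difference from E123 dCre nuclei held 0. At these depths 3 counts correspond to 0.647 to 1.59 CPM, which limits what can be seen of genes near that level in both groups.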

Other observations

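Immediate-early genes beyond those named by rule are given here, chosen after their values were seen, and none passed the threshold. Jun, an AP-1 subunit, was at 4.59, 22.0, 18.5 and 12.4 CPM in light libraries, against 3.31, 0.970 and 0.708 CPM in dark libraries (3.21 ± 0.816, adjusted p = 0.104). Tiparp, a mono-ADP-ribosyltransferase, was at 74.0, 81.8, 52.1 and 107 CPM in light libraries, against 5.51, 12.0 and 33.7 CPM in dark libraries (2.16 ± 0.610, adjusted p = 0.149). Egr2 was at 10.6, 19.5, 15 and 10.2 CPM in light libraries, against 0, 0 and 1.2 CPM in dark libraries (4.75 ± 1.46, adjusted p = 0.200), and Ccn1, a secreted matrix protein, was at 60.4, 30.5, 22.4 and 33.6 CPM in light libraries, against 7.17, 1.94 and 8.02 CPM in dark libraries (2.69 ± 1.16, adjusted p = 0.400). All 4 were without overlap between light and dark. The 3 tested members below 0 on the log2 scale were Amigo3, Klf2 and Ier5l, none above 4.2 CPM in any library. Crem, a CREB-family repressor gene, averaged 42.9 ± 8.48 CPM in light and 33.4 ± 8.34 CPM in dark libraries (0.36 ± 0.427, adjusted p = 0.859), and in the other 5 conditions its log2 fold change was 1.29 ± 0.179, adjusted p = 1.18e-06. The difference between these did not pass.

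Effector genes beyond those named by rule, likewise chosen after their values were seen, included Vgf, a secreted neuropeptide precursor, at 7.78, 21.8, 14.7 and 18.9 CPM in light libraries, against 2.21, 3.23 and 8.02 CPM in dark libraries (1.76 ± 0.519, adjusted p = 0.173), and Nrn1, a membrane-anchored neuritin, at 81.4, 95, 94.2 and 81.6 CPM in light libraries, against 30.9, 47.5 and 61.3 CPM in dark libraries (0.91 ± 0.342, adjusted p = 0.334). The light values of Nrn1 were nearly equal and above every dark value. Plk2, a kinase of synaptic scaling, averaged 166 ± 50.3 CPM in light and 144 ± 44.8 CPM in dark libraries (0.20 ± 0.375, adjusted p = 0.926), with overlap, and Inhba, a subunit of activin, averaged 54.5 ± 20.3 CPM in light and 48.1 ± 17.4 CPM in dark libraries (0.18 ± 0.396, adjusted p = 0.946).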
